A study of Rattus norvegicus with 12 samples.

Results

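The epithelial membrane protein family was followed over 12 arrays of rat dorsal striatum. It was taken as the genes Emp1, Emp2, Emp3 and Pmp22, found by the gene name printed on the array for all non-control probes. These 4 genes are among 35608 genes on the array and hold 6 of its 41012 probes. Of the 6 probes, 5 passed the filter on dim signal, and each of the 4 genes was among the 20397 genes tested. The family was selected on the Emp3 signal, which moved in opposite directions under the 2 treatments, so the Emp3 values on the HFS, DOPA and 6-OHDA arrays are given as a description with no test.

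All 12 rats were males with a unilateral lesion made by 9 µg of 6-OHDA, a toxin that destroys dopamine neurons, in the left substantia nigra, and each of the 4 groups held 3 rats with 1 array per rat. The 6-OHDA group had the lesion alone. The HFS group also had continuous high frequency stimulation of the subthalamic nucleus on the lesioned side for 5 days, at 130 Hz with 80 µs pulses of 60 µA. The DOPA group had the lesion and then, for 19 days, 2 daily injections of L-DOPA (25 mg/kg) and benserazide (12.5 mg/kg), which blocks the decarboxylase outside the brain. The DOPA/HFS group had the lesion and both treatments, with the stimulation in the last 5 days of L-DOPA. Strain and age are not given in the sources used here. An electrode was described for the 2 stimulated groups only, so implantation and stimulation cannot be told apart. Punches of thick frozen sections were pooled within a rat, and fewer cells of a type cannot be told apart from less RNA per cell.

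EMP1, EMP2, EMP3 and PMP22 are small membrane proteins that cross the membrane 4 times, and they belong to the same superfamily as the claudins of tight junctions and the stargazin-like subunits of glutamate receptors. PMP22 is best known from the compact myelin of Schwann cells, where duplication of its gene causes a hereditary neuropathy, and it is made outside peripheral nerve too. EMP2 takes part in integrin trafficking and signalling through focal adhesion kinase, EMP1 rises in reactive astrocytes, and EMP3 is known from leukocytes and gliomas. Members of the family bind the P2X7 receptor.

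On each array, 50.5% to 63.2% of spots were well above background. Spots marked as outliers numbered 4175 on the DOPA/HFS replicate 3 array and 2 to 25 on the others, and none of them was a spot of the family. The 4 groups were balanced over 3 slides, with 1 array per group on a slide. Of 12 markers of striatal projection neurons, 11 were well above background on all 12 arrays and Rgs9 on 11 of them. On DOPA/HFS replicate 3 the Rgs9 signal was left out as an outlier. DOPA/HFS replicate 1 stood apart from the other 5 arrays of L-DOPA-treated rats. Prodynorphin (Pdyn), an opioid precursor of striatal projection neurons, had a log2 signal of 14.68 there, against 15.81 to 16.21 on those 5 arrays and 14.36 to 14.83 on the 6 arrays without L-DOPA. The family's differences that use the DOPA/HFS group against 6-OHDA, and those of Emp3 in the other comparisons, are given with and without this array.

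The Emp3 signal was lowest in HFS, intermediate in 6-OHDA and highest in DOPA. Normalized log2 signals of its single probe, A_42_P517399, were 9.45, 9.86 and 9.43 in the 6-OHDA group (mean 9.58 ± 0.24, SD, n = 3). In the HFS group they were 9.22, 9.08 and 8.88 (mean 9.06 ± 0.17, SD, n = 3), so the 3 stimulated rats lay below every rat with the lesion alone. In the DOPA group they were 9.97, 10.36 and 10.09 (mean 10.14 ± 0.20, SD, n = 3), above every rat with the lesion alone. The difference from 6-OHDA was -0.52 on the log2 scale in HFS, a fold of 0.696. In DOPA it was 0.56, a fold of 1.48.

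**Figure D1:**
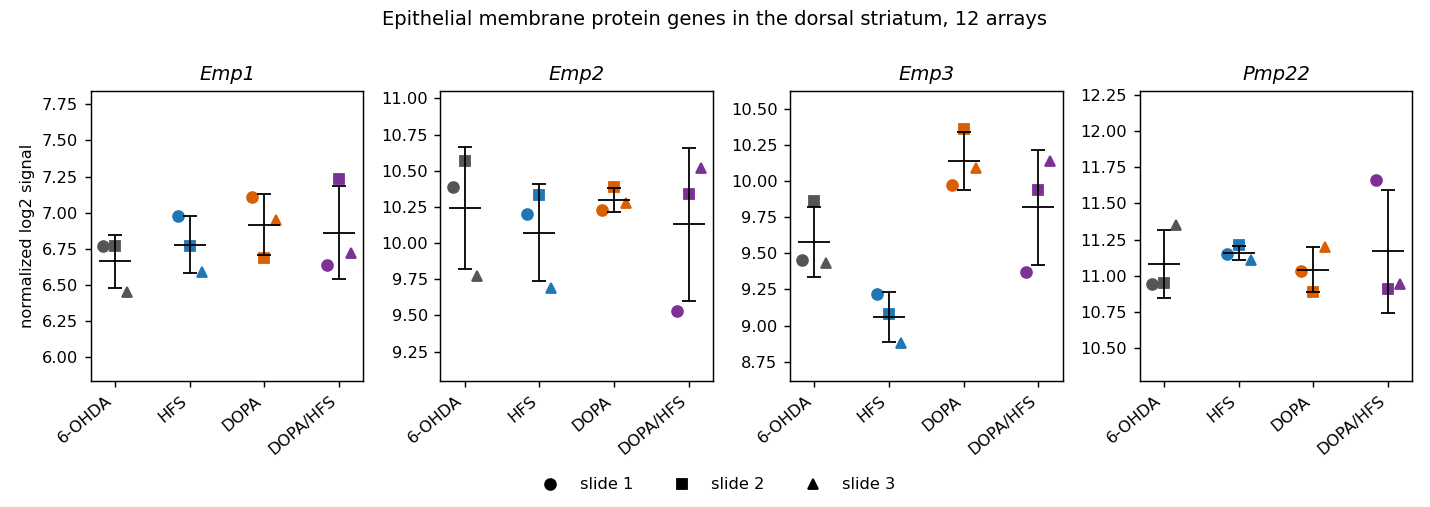
Normalized log2 signal (y axis) of the brightest probe of Emp1, Emp2, Emp3 and Pmp22 in the 4 groups (x axis). Points are single arrays, with a marker for each slide, horizontal bars are group means and error bars are SD (n = 3), and each panel spans the same range of 2 log2 units. The 3 HFS arrays lie lowest for Emp3, from 8.88 to 9.22, and the 3 DOPA arrays lie from 9.97 to 10.36, while the groups overlap for the other genes.

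Both Emp3 differences had the same sign on each of the 3 slides and with any single array left out. Those signs were fixed in advance, because neither group overlapped with 6-OHDA, so only the sizes are described. Against the 6-OHDA array of the same slide, the HFS array differed by -0.23, -0.78 and -0.56, and the DOPA array by 0.52, 0.51 and 0.65. Leaving out single arrays gave -0.60 to -0.38 for HFS and 0.45 to 0.70 for DOPA. The gap between HFS and 6-OHDA depended on scaling between arrays. Before it, the Emp3 intensities on the linear scale were 692, 591 and 978 in 6-OHDA and 519, 645 and 655 in HFS, and these overlapped. After scaling to the 75th percentile or in the deposited normalized table, as after quantile normalization, they did not. In the DOPA group the unscaled intensities were 913, 1150 and 879, and they too overlapped with 6-OHDA.

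By the fold limits of the study (over 1.2 or under 0.8) together with groups that do not overlap, 1.33% of genes were lower in HFS than in 6-OHDA and 2.1% were higher in DOPA. Only 3 of 20352 genes, 0.0147%, met both criteria as Emp3 did, and 6 genes (0.0295%) did so in opposite directions either way round. These shares describe the criterion by which Emp3 came to be looked at. The other 2 genes lower in HFS and higher in DOPA, named here after their values were seen, were Htra4, a secreted serine protease gene, with -0.53 in HFS and 0.94 in DOPA, and LOC288979, with -0.37 and 0.40. The share of the Emp3 variance over the 12 arrays that lay between groups was 76.7%, beside a median of 21.1% over 18349 genes, a value that restates the pattern the family was chosen for. The corresponding shares were 19.8% for Emp1, 7.9% for Emp2 and 6.2% for Pmp22, below that median.

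In the DOPA/HFS group the Emp3 signals were 9.37, 9.94 and 10.14 (mean 9.81 ± 0.40, SD, n = 3). The low array was replicate 1, which lay below the lowest 6-OHDA array, whereas the other 2 lay above the highest. Against 6-OHDA the difference was 0.23 with a standard error of 0.21 (95% interval -0.24 to 0.71), with a limma adjusted p = 1 and an exact two-sided permutation p = 0.5. That comparison used the same 6-OHDA arrays as the choice of the family. By slide the difference was -0.08, 0.08 and 0.70. Without DOPA/HFS replicate 1 it was 0.46 (limma adjusted p = 1), and without replicate 3 it was 0.07.

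Set against the single treatments, Emp3 in DOPA/HFS differed from DOPA by -0.33, with overlapping arrays. It differed from HFS by 0.76, with no overlap, beside 1.44% of all genes higher in DOPA/HFS than in HFS by the same criterion. The low HFS values were part of the choice of the family, so nothing is read from that share. By the fold limits with no overlap, 6.2% of all genes differed between DOPA/HFS and DOPA, and none of the 4 family genes did. Without replicate 1 the difference of Emp3 from HFS was 0.98 and that from DOPA was -0.11, and by slide the latter was -0.60, -0.43 and 0.05. In the deposited normalized table the DOPA/HFS values were 9.65, 10.19 and 9.93, and all 3 lay below the lowest DOPA value of 10.20 there. On DOPA/HFS replicate 3 the deposited value was lower than the one computed here, whereas on the other 11 arrays it was higher. Over the 6 arrays with L-DOPA, Emp3 differed from the 6 arrays without it by 0.66. Over the 6 stimulated arrays it differed from the 6 unstimulated arrays by -0.43. Without DOPA/HFS replicate 1 these were 0.77 and -0.31. Both values contain the arrays used to choose the family. Group means of Emp3 thus ran in the order HFS, 6-OHDA, DOPA/HFS and DOPA, and the neighbours 6-OHDA and DOPA/HFS overlapped, as did DOPA/HFS and DOPA.

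**Figure D2:**
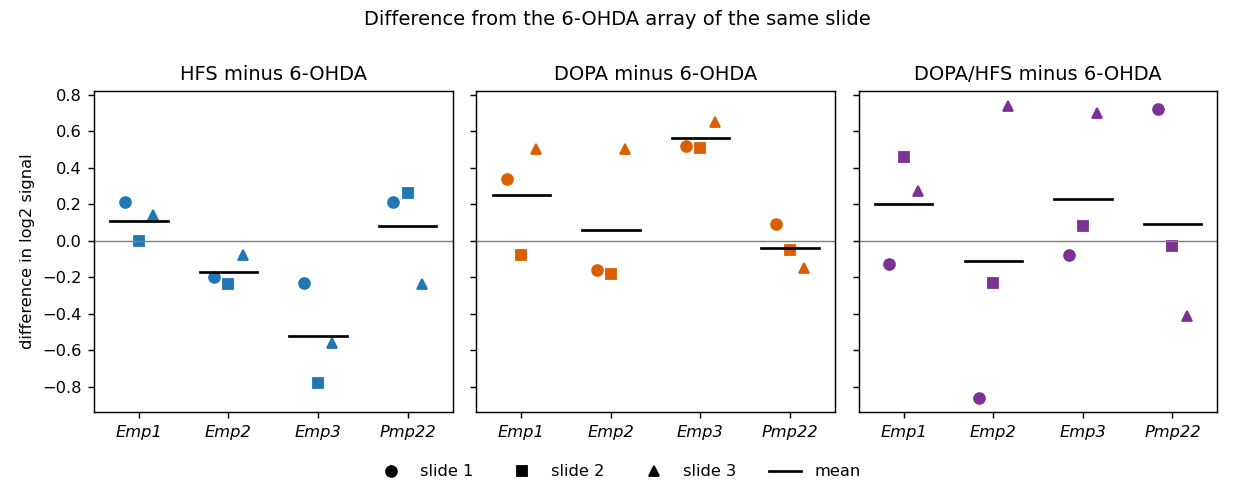
Difference in log2 signal (y axis) between each treated array and the 6-OHDA array of the same slide, for the 4 genes (x axis) and the 3 treatments (panels). Points are slides and horizontal bars are means of 3 slides. Emp3 is below 0 on all 3 slides in HFS (-0.78 to -0.23) and above 0 on all 3 in DOPA (0.51 to 0.65). These Emp3 signs follow from groups that do not overlap. Emp2 in DOPA/HFS runs from -0.86 to 0.74.

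Emp2 did not pass the test in any comparison. Its bright probe, A_43_P13924, gave log2 signals of 10.39, 10.57 and 9.77 in 6-OHDA and 10.20, 10.33 and 9.69 in HFS. In DOPA they were 10.23, 10.39 and 10.28, and in DOPA/HFS 9.53, 10.34 and 10.52. The low arrays were thus 1 each of 6-OHDA, HFS and DOPA/HFS, and every pair of groups overlapped. Differences from 6-OHDA were -0.17 (95% interval -0.80 to 0.45) in HFS, 0.06 (-0.57 to 0.68) in DOPA and -0.11 (-0.74 to 0.51) in DOPA/HFS, each with a standard error of 0.28 and a limma adjusted p of 0.998, 1 and 1. The SD within groups was 0.38 for Emp2, against a median of 0.27 over all genes. In DOPA/HFS the 3 slides gave -0.86, -0.23 and 0.74, and without DOPA/HFS replicate 1 the difference was 0.18.

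The second Emp2 probe, A_44_P427006, was well above background on 8 of 12 arrays. Its signals were 5.23, 4.70 and 4.98 in 6-OHDA, 5.07, 4.77 and 5.04 in HFS, 5.21, 5.43 and 5.34 in DOPA, and 4.71, 5.34 and 5.13 in DOPA/HFS. Its differences from 6-OHDA were -0.01 (HFS), 0.35 (DOPA) and 0.08 (DOPA/HFS), with a standard error of 0.19 (limma adjusted p = 0.999, 1 and 1, adjusted over all probes). For DOPA/HFS the 2 probes gave -0.11 and 0.08, each smaller than its standard error, and none of these differences passed the test.

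Emp1 did not pass the test in any comparison either. The signals of its probe A_44_P807058 were 6.77, 6.77 and 6.45 in 6-OHDA, 6.98, 6.77 and 6.59 in HFS, 7.11, 6.69 and 6.95 in DOPA, and 6.64, 7.23 and 6.72 in DOPA/HFS. The mean of each treated group lay above that of 6-OHDA, by 0.11 (95% interval -0.32 to 0.54), 0.25 (-0.18 to 0.68) and 0.20 (-0.23 to 0.63) in the same order of groups, and the arrays overlapped in each case. With outlier spots kept, the DOPA/HFS difference was -0.03. The standard error was 0.20 and the limma adjusted p was 0.998, 1 and 1. Without DOPA/HFS replicate 1 the last difference was 0.31. Over 6 arrays with and 6 without L-DOPA the difference was 0.17 (exact two-sided permutation p = 0.199). Its other probe, A_43_P11583, was not well above background on any of the 12 arrays and was not tested.

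Pmp22 did not pass the test in any comparison. The probe A_44_P353515 gave 10.94, 10.95 and 11.35 in 6-OHDA, 11.15, 11.21 and 11.11 in HFS, 11.03, 10.89 and 11.20 in DOPA, and 11.66, 10.91 and 10.94 in DOPA/HFS. The highest signal was that of DOPA/HFS replicate 1, the array with the lowest Emp2 signal. Differences from 6-OHDA were 0.08 (95% interval -0.38 to 0.54) in HFS, -0.04 (-0.49 to 0.42) in DOPA and 0.09 (-0.37 to 0.55) in DOPA/HFS, with a standard error of 0.21 and limma adjusted p of 0.998, 1 and 1. Among the slides, DOPA/HFS ran from -0.41 to 0.72, and without DOPA/HFS replicate 1 the difference was -0.15.

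In the limma fit, a gene was called when its adjusted p was below 0.1 and its fold above 1.2 or below 0.8. None of the 3 tested members was called in HFS, where 0% of all 20397 genes were called, and none in DOPA, where 0.0049% were called. The 1 gene called in DOPA was Igsf5, a junctional membrane protein gene, with a log2 difference of 1.89 (limma adjusted p = 0.0602). None of the 4 members was called in DOPA/HFS, with 0% of all genes called. At an unadjusted p under 0.05, 2.34%, 2.58% and 2.75% of genes passed in the same order, and again 0 of these members. The fold limits with non-overlapping groups, used in the study with a Wilcoxon test, likewise passed 0 of Emp1, Emp2 and Pmp22 in each treatment, against 3.2%, 3.87% and 2.79% of all genes.

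Between DOPA/HFS and DOPA, 0% of genes were called, and between DOPA/HFS and HFS also 0%, with 0 of the 3 tested members in each. Emp1, Emp2 and Pmp22 differed by -0.05, -0.17 and 0.13 from DOPA and by 0.08, 0.06 and 0.01 from HFS, with limma adjusted p = 1 for each, and at an unadjusted p under 0.05, where 3.78% and 2.44% of genes passed, 0 of the 3 did. In the comparison of 6 stimulated with 6 unstimulated arrays (0% of genes called), the differences were 0.03 for Emp1, -0.17 for Emp2 and 0.10 for Pmp22, with exact two-sided permutation p of 0.829, 0.361 and 0.491. In that of L-DOPA (0.0049% called) they were 0.17, 0.06 and -0.01. The difference between the stimulation effects with and without L-DOPA was -0.17 for Emp1 (95% interval -0.78 to 0.44), 0.00 for Emp2 (-0.88 to 0.89) and 0.05 for Pmp22 (-0.60 to 0.70), with 0% of genes called. At an unadjusted p under 0.05 these 3 comparisons passed 4.36%, 2.74% and 1.98% of genes and 0 of the 3 members. The intervals for the difference between effects include sizes like those seen for Emp3.

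Emp2 and Pmp22 moved against each other from array to array. The 3 arrays lowest for Emp2 were DOPA/HFS replicate 1, HFS replicate 3 and 6-OHDA replicate 3, with 9.53, 9.69 and 9.77, and their Pmp22 signals were 11.66, 11.11 and 11.35. The 4 arrays highest for Emp2, from 10.39 to 10.57, were 4 of the 5 with the lowest Pmp22 signals, and theirs ran from 10.89 to 10.95. Over 12 arrays Pearson's r was -0.802 (permutation p = 0.00224, 0.0134 after Benjamini-Hochberg adjustment over the 6 pairs of members) and Spearman's rho was -0.735 (permutation p = 0.00899, adjusted 0.0539). The pair was singled out after the values were seen. Strong correlations were not particular to it: among 5456 genes, Emp2 reached r = 0.953 (with Ubfd1) and Pmp22 0.93 (with Xrcc1). How many gene pairs correlate this strongly on these arrays was not counted.

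**Figure D3:**
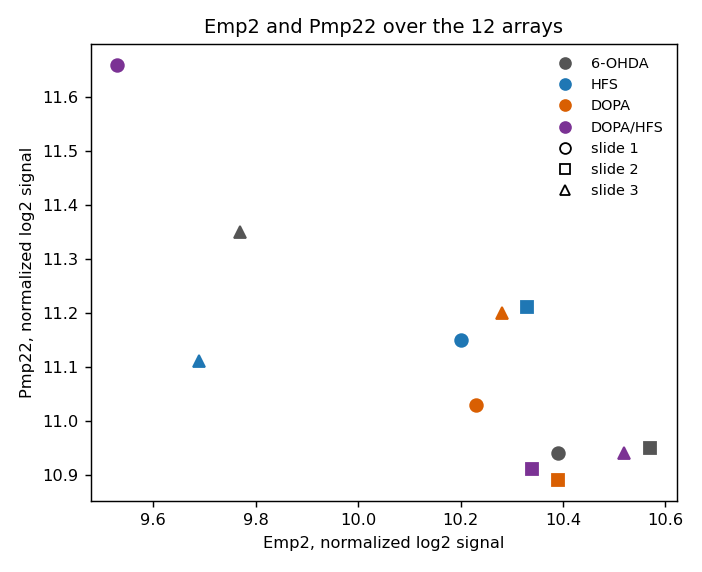
Normalized log2 signal of Emp2 (x axis) and Pmp22 (y axis) on the 12 arrays, with a colour for each group and a marker for each slide. DOPA/HFS replicate 1 lies at one end, with 9.53 for Emp2 and 11.66 for Pmp22, and the 9 arrays with Emp2 at or above 10.20 lie at the other.

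With the means of the 4 groups removed, r for Emp2 and Pmp22 was -0.792, and with those of the 3 slides removed it was -0.766. A slide holds 4 arrays and a group 3, too few for a value within each. Leaving out the 2 arrays farthest from the Emp2 median, DOPA/HFS replicate 1 and HFS replicate 3, gave -0.784. The Emp2 values fell into 3 low arrays and 9 others with a gap between them, and over those 9 arrays, which span less of the Emp2 range, r was -0.583 (permutation p = 0.104). All arrays shared one normalization, and RNA quality by array was not analysed here.

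Of the other pairs, those with Emp3 contain the values used to choose the family and are described with no test. Emp2 and Emp3 had r = 0.584 and rho = 0.595 over 12 arrays, and r = 0.389 without the same 2 arrays. With group means removed that r was 0.849. Emp3 and Pmp22 had r = -0.484 and rho = -0.606, and r = -0.498 without HFS replicate 3 and DOPA replicate 2. With group means removed it was -0.756. Emp1 had r = 0.459 with Emp2 and -0.393 with Pmp22, with permutation p of 0.132 and 0.207, and r = 0.342 with Emp3.

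The genes whose pattern over the 12 arrays was most like that of Emp3, among 5456 genes with a RefSeq-matched symbol and a value on every array, were Plekha4 (r = 0.923), Tnni3 (0.915), Itga7 (0.904), Cpne9 (0.896) and Spon1 (0.896). Tnni3 encodes the cardiac form of troponin I, Itga7 a laminin-binding integrin subunit, Cpne9 a copine, which binds phospholipid in the presence of calcium, and Spon1 the secreted matrix protein F-spondin. Plekha4 encodes a protein with a pleckstrin homology domain. All 5 were above 0 in DOPA, with log2 differences from 6-OHDA of 1.03, 0.89, 0.71, 1.22 and 0.41 in the same order. In each gene the 3 DOPA arrays lay above the 3 6-OHDA arrays, beside 2.1% of all genes by the fold limits with no overlap. The 5 genes were picked for following Emp3, which is separated in the same way, so this is no separate result. In HFS the differences were -0.34, -0.28, -0.17, -0.29 and -0.29, and for each of the 5 genes the arrays overlapped. The resemblance contains the arrays used to choose the family, and it is a description with no test.

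The 5 genes were chosen for following Emp3 over these same arrays, DOPA/HFS replicate 1 among them, so their values there are no separate support. Plekha4 was 9.66 there, against 10.83 and 11.19 on the other 2 arrays of the group. Cpne9 was 10.64 against 11.78 and 11.72, and Itga7 was 11.91 against 12.93 and 13.05. Spon1 was 9.70 against 10.40 and 10.47, and Tnni3 was 12.04 against 12.41 and 12.37. Tnni3 stayed above its highest 6-OHDA value of 12.01, whereas Emp3 fell below its lowest. The part of this array in the DOPA/HFS results was not tested beyond leaving it out.

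**Figure D4:**
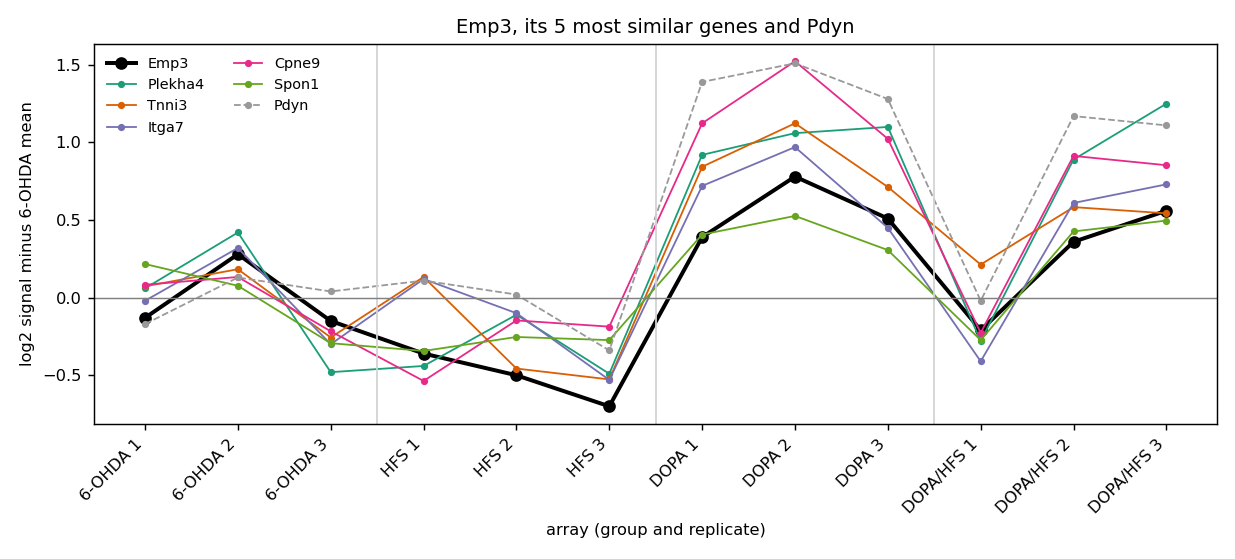
Log2 signal minus the mean of the 6-OHDA group (y axis) on the 12 arrays (x axis, by group and replicate) for Emp3 (thick line), the 5 genes most like it and Pdyn (dashed line). All lines are high on the 3 DOPA arrays and on DOPA/HFS replicates 2 and 3, and fall on DOPA/HFS replicate 1, where Emp3 was 9.37.

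For the other members the most similar genes were different. Those of Emp2 were Ubfd1 (r = 0.953), Psme3 (0.94), Gorasp1 (0.933), Slc7a8 (0.927) and Mrrf (0.927), those of Pmp22 were Xrcc1 (0.93), Crat (0.888), Dcaf11 (0.885), Smc1a (0.881) and Vac14 (0.872), and those of Emp1 were Etfdh (0.858), Mtfmt (0.849), Rnf8 (0.831), Vta1 (0.831) and Memo1 (0.824). Slc7a8 encodes a transporter of neutral amino acids and Psme3 a proteasome activator. Between 6-OHDA and the treated groups, the log2 differences of these 15 genes ran from -0.41 to 0.28.

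Relatives of the family were next counted in the claudin and stargazin branches. Of 27 relatives listed, 25 were on the array and 17 passed the filter. None was called in HFS, DOPA or DOPA/HFS, where 0%, 0.0049% and 0% of all genes were called. With such shares the count tells nothing particular about the relatives. The median log2 differences of the relatives were 0.07, 0.02 and -0.02, beside 0.01, -0.01 and -0.01 over all genes. The relatives above 0 numbered 12, 9 and 8 of 17. In DOPA, Cldn23 and Cldn5 were higher with no overlap and past the fold limits, 2 of 17 beside 2.1% of all genes. The tight junction gene Cldn5, the main claudin of brain endothelium, had signals of 13.00, 13.20 and 12.94 in DOPA against 12.78, 12.76 and 12.78 in 6-OHDA (difference 0.27, limma adjusted p = 1). Cldn23 had 7.80, 7.43 and 7.64 against 7.36, 6.78 and 6.91 (difference 0.60, limma adjusted p = 1). The oligodendrocyte claudin Cldn11 had a difference of -0.43 in DOPA and 0.33 in HFS, with a standard error of 0.38. The stargazin gene Cacng2 had 0.23, 0.15 and 0.03 in HFS, DOPA and DOPA/HFS, with a standard error of 0.22.

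Binding partners of the family proteins gave 10 tested genes of 12, since P2rx7, which encodes the P2X7 receptor, and Itgb3 did not pass the filter. None was called in the 3 treatments, beside 0%, 0.0049% and 0% of all genes, and the medians were 0, 0 and 0.09. The laminin receptor subunit Itga6 had signals of 6.08, 6.13 and 5.80 in DOPA against 5.71, 5.50 and 5.77 in 6-OHDA, with no overlap (difference 0.34, limma adjusted p = 1). It was the 1 of the 10 to pass the fold limits this way, beside 2.1% of all genes. Ptk2, which encodes focal adhesion kinase, had -0.05, -0.18 and -0.17 with a standard error of 0.17, and Cav1, which encodes caveolin 1, had -0.01, 0.29 and 0.06 with a standard error of 0.22. Genes known to rise with Emp1 in reactive astrocytes gave 7 tested genes of 12 listed, 11 of them on the array, with medians of 0.09, 0.20 and 0.07. None of these 7 was called, beside the same shares of all genes called. Ptgs2 was the 1 of the 7 higher in DOPA with no overlap and past the fold limits, beside 2.1% of all genes.

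Markers of other cell types were measured beside the Emp3 values. None of the marker genes was called, beside 0%, 0.0049% and 0% of all genes in HFS, DOPA and DOPA/HFS. Of 12 choroid plexus markers, 7 were tested and all 7 were above 0 in HFS. Clic6 and Kcnj13 were well above background on 5 of 12 arrays only, and their group means were highest in HFS. They may have passed the filter through that group, so the count of 7 above 0 rests in part on the filter. The median of 3.48, which is the value of Clic6, is for the same reason no exact difference. Sostdc1, well above background on all 12 arrays, differed by 5.10. The mean log2 signal of the 6 of these with a value on every array ran from 7.40 to 10.86 in HFS, from 4.87 to 5.29 in 6-OHDA, from 4.46 to 9.03 in DOPA and from 4.63 to 6.27 in DOPA/HFS. By the fold limits with no overlap, 5 of the 7 markers were higher in HFS, beside 3.2% of all genes in either direction. Clic6 and Kcnj13 were among the 5. In DOPA/HFS 1 of the 7, Sostdc1, was higher this way, beside 2.79%. Transthyretin (Ttr), the leading marker, had 16.30, 11.86 and 15.28 in HFS. HFS replicate 2, the lowest of the 3 for these markers, had an Emp3 signal of 9.08, between those of the other 2 HFS arrays. Kl, Prlr, Slc4a5, Kcne2 and Steap1 did not pass the filter. The part of choroid plexus RNA in the Emp3 difference was not tested.

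Of 10 ependymal markers, 5 were on the array and 4 were tested. All 4 were above 0 in HFS (median 0.62) and below 0 in DOPA (median -0.49), the reverse of Emp3. Ak7 was well above background on 6 of 12 arrays only, with its highest group mean in HFS. It may have passed the filter through that group, so these counts and medians rest in part on the filter. Foxj1, Rsph1 and Dynlrb2, well above background on all 12 arrays, had 0.51, 0.69 and 0.54 in HFS. In DOPA they had -0.48, -0.50 and -0.42. The mean signal of the 4 markers ran from 8.98 to 9.61 in HFS, from 7.79 to 8.41 in DOPA and from 7.50 to 9.39 in 6-OHDA, so these ranges overlapped with 6-OHDA. Endothelial markers, 11 of 13 tested, had a median of -0.04 in HFS and 0.21 in DOPA, where 9 of 11 were above 0. Their mean signal was 7.70 to 7.92 in DOPA, 7.40 to 7.75 in 6-OHDA and 7.45 to 7.67 in HFS. The 12 microglial markers had medians of -0.10 in HFS and 0 in DOPA, and those of oligodendrocytes 0.04 and -0.08. For astrocytes, 11 of 12 were tested, with medians of 0.14 and 0.05, and for leptomeninges and fibroblasts, 11 of 12 with 0.02 and -0.13. In HFS the genes of this last list ran from -0.64 to 1.82. Of these 11, Igfbp2 (1.82) and Ogn (0.54) were higher with no overlap and past the fold limits, beside 3.2% of all genes in either direction. By the same criterion in DOPA, the endothelial Cldn5 and the astrocyte marker Slc1a2 were higher and the oligodendrocyte marker Opalin was lower. Each was 1 gene of its list, beside 3.87% of all genes in either direction. The part of these cell types in the Emp3 values was not tested.

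**Figure D5:**
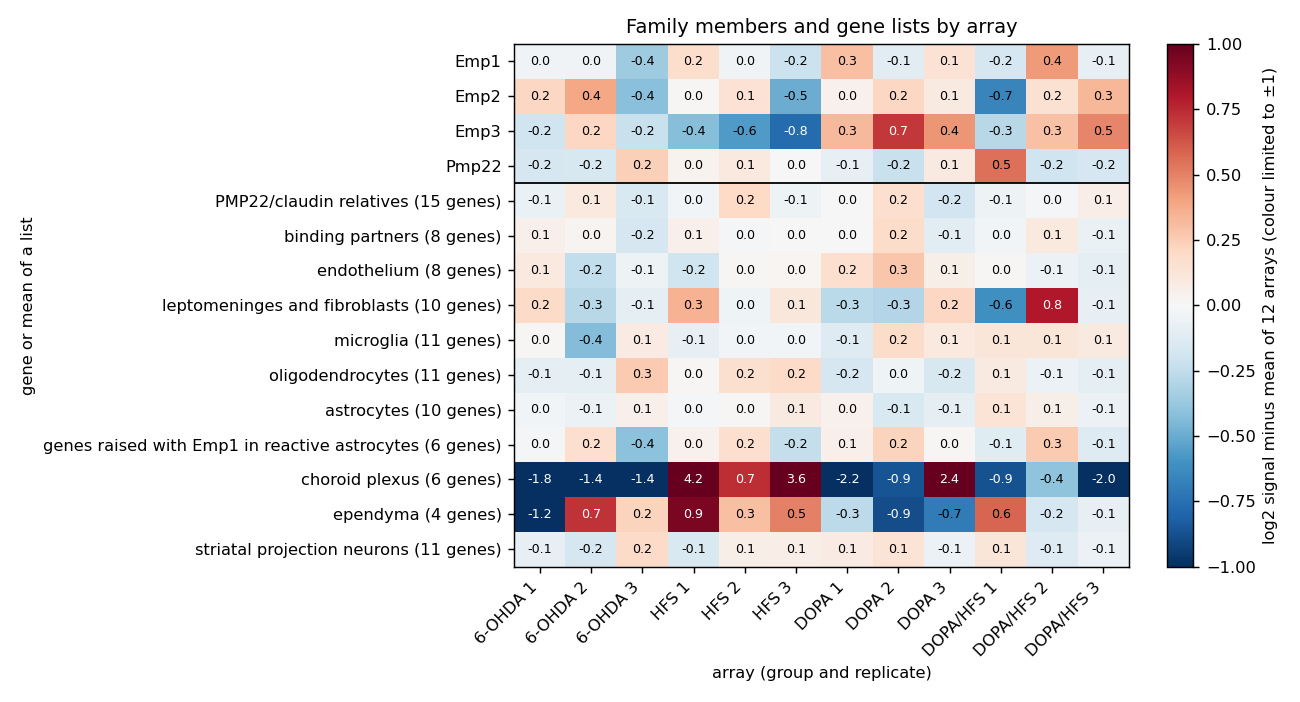
Log2 signal minus its mean over the 12 arrays, as colour and as a printed value, for the 4 family members and for the mean of each gene list (rows, with the number of genes that have a value on every array) on the 12 arrays (columns). Colour is limited to 1 log2 unit either way. Choroid plexus markers are high on the 3 HFS arrays and on DOPA replicate 3, and Emp3 is lowest on the 3 HFS arrays.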

How the data were processed

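Striatal RNA was measured on 12 one-colour Agilent arrays, 1 per rat. Intensity values were read from the scanner output the authors deposited, in which Agilent Feature Extraction 9.1 (submitters' processing notes) had subtracted background. The deposited log2 table had been quantile normalized between arrays by the authors. Gene names came from RefSeq accessions (RefSeq genes of GRCr8, for 10735 of 41012 probes) and otherwise from the files. No genome build is given in the sources used here.

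Of 45018 spots per array, 1639 controls and spots marked as outliers were left out. Intensities were taken to log2, quantile normalized and averaged per probe. Probes well above background on a share of at least 0.4 of arrays were kept, and the brightest probe stood for its gene. All arrays were fitted together with limma 3.58.1 in R 4.3.3 (data.table version 1.17.8, jsonlite 2.0.0). Calls required a p below 0.1 after Benjamini-Hochberg adjustment and a fold above 1.2 or below 0.8. The methods used SAM, which was not run here, followed by a Wilcoxon test, which at 3 against 3 passes only groups that do not overlap and cannot give an exact p under 0.1. Correlations between members used 100000 permutations. The fits were tested on simulated data. The number of arrays limits the precision.

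The members, lists and tests were chosen with earlier results of these data known. Named genes were the members, the listed genes and the 5 genes most correlated with each member. Igsf5, Htra4 and LOC288979 were named after their values were seen. Alternatives were scaling to the 75th percentile, normexp with an offset of 50, the deposited table, other filters on dim probes, the mean of all probes, each probe alone, outlier spots kept, the replicate number as a block, only the arrays compared, other thresholds and leaving out each array. The settings for the correlation were chosen after seeing the data.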

Additional observations from a re-analysis of the deposited data

Results flagged for a closer look

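The Emp3 signal moved in opposite directions under the 2 treatments, by -0.52 on the log2 scale in HFS and by 0.56 in DOPA relative to 6-OHDA, with all 3 HFS arrays below and all 3 DOPA arrays above the 6-OHDA arrays. The difference between the 2 effects was not tested, because the family was chosen for it.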

How the results depend on the processing

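The counts of called members and listed genes stayed on their side of the threshold under the alternatives run, with 1 exception. In the deposited normalized values 1 family gene, Emp3, passed the fold limits with no overlap between DOPA/HFS and DOPA, against 0 otherwise. The share of all genes passing was 6.2% in the main values and is not given for the deposited ones. The DOPA values of Emp3 were part of the choice of the family, so nothing is read from that count. The 3 Emp3 differences from 6-OHDA kept their direction. Only that in DOPA/HFS was tested, and it stayed on its side of the threshold. Over the other settings Emp3 ran from -0.53 to -0.44 in HFS, from 0.54 to 0.56 in DOPA and from 0.08 to 0.24 in DOPA/HFS. With 1 array left out it ran from -0.60 to -0.38, 0.45 to 0.70 and 0.07 to 0.46. For HFS and DOPA the sign with 1 array left out was fixed, because those groups did not overlap with 6-OHDA. The differences of Emp1, Emp2 and Pmp22 that changed direction, none of them called, have no settled sign. With normexp correction these became, for Pmp22, 0.02 (DOPA against 6-OHDA), -0.01 (DOPA/HFS against HFS) and -0.03 (difference between stimulation effects), and for Emp1 0.01 (DOPA/HFS against DOPA). In the deposited table Pmp22 had 0.02 (DOPA against 6-OHDA), -0.01 (DOPA/HFS against 6-OHDA), -0.03 (DOPA/HFS against DOPA), -0.12 (DOPA/HFS against HFS) and -0.14 (difference between effects), Emp1 -0.02 (DOPA/HFS against HFS) and -0.03 (stimulation, 6 against 6), and Emp2 -0.09 (DOPA/HFS against HFS) and -0.01 (L-DOPA, 6 against 6). With outlier spots kept, Emp1 had -0.03 (DOPA/HFS against 6-OHDA), -0.14 (DOPA/HFS against HFS) and -0.08 (stimulation, 6 against 6), Emp2 -0.08 and -0.01 in the 2 comparisons just named for it, and Pmp22 -0.02 (DOPA/HFS against 6-OHDA), -0.10 (DOPA/HFS against HFS) and -0.06 (difference between effects). The cause was not tested.

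With 1 array left out, Emp1 ran from -0.24 to 0.06 (DOPA/HFS against DOPA), -0.10 to 0.20 (DOPA/HFS against HFS) and -0.06 to 0.09 (stimulation, 6 against 6). Emp2 ran from -0.41 to 0.02 in HFS, -0.18 to 0.22 in DOPA, -0.35 to 0.18 in DOPA/HFS, -0.36 to 0.13 (DOPA/HFS against DOPA), -0.14 to 0.36 (DOPA/HFS against HFS) and -0.06 to 0.21 (L-DOPA, 6 against 6). Pmp22 ran from -0.12 to 0.10 in DOPA, -0.15 to 0.23 in DOPA/HFS, -0.12 to 0.26 (DOPA/HFS against DOPA), -0.23 to 0.14 (DOPA/HFS against HFS), -0.02 to 0.17 (stimulation), -0.13 to 0.06 (L-DOPA) and -0.19 to 0.18 (difference between effects). The Emp2 and Pmp22 correlation ran from -0.907 to -0.654 with 1 array left out and from -0.811 to -0.645 over the other values.

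The replicate number, which marks the slide, was not used to pair the arrays in the main fit. Deviations of same-numbered arrays correlated between -0.288 and 0.477 (median 0.112), and those of differently numbered arrays between -0.447 and 0.543 (median -0.0693). Of 12 arrays, 5 correlated best with their own number in another group. Whether arrays of a slide share signal was not tested. With the replicate number as a block, 0 members were called, as without it, and Emp3 in DOPA/HFS stayed at 0.23 (limma adjusted p = 0.991). A group also kept 1 place on its slides, so place and treatment cannot be told apart. Signal over background left Emp1 with 1 usable probe and Emp2 with 1 bright probe.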
